A study of Saccharomyces cerevisiae with 26 samples.

Results

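The glycolytic trunk is the run of reactions that carries glucose 6-phosphate down to pyruvate. The 9 genes described here encode most of it in the yeast Saccharomyces cerevisiae: PGI1, PFK1, PFK2, FBA1, TPI1, PGK1, GPM1, CDC19 and PYK2. Their systematic names are, in that order, YBR196C, YGR240C, YMR205C, YKL060C, YDR050C, YCR012W, YKL152C, YAL038W and YOR347C. They were chosen by name as steps of this pathway, and every gene of that list with a spot on the arrays was kept. All 9 had a spot (11 spots, with 2 each for PGI1 and PGK1), out of 5606 genes with a spot, and all 9 were among the 5372 genes tested.

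Glucose 6-phosphate is turned into fructose 6-phosphate (PGI1, phosphoglucose isomerase), phosphorylated by phosphofructokinase (PFK1 and PFK2 encode the alpha and beta subunit of 1 enzyme) and split by aldolase (FBA1), whose products triosephosphate isomerase (TPI1) interconverts. Phosphoglycerate kinase (PGK1) makes the first ATP of the lower trunk, phosphoglycerate mutase (GPM1) moves the phosphate group, and pyruvate kinase makes the last ATP and pyruvate. CDC19 encodes the main pyruvate kinase of yeast, which fructose 1,6-bisphosphate activates, and PYK2 encodes a minor isozyme that is known to be repressed by glucose and to be insensitive to that activator. Galactose enters above the trunk as glucose 6-phosphate, so the pathway is in use before and after a glucose pulse. Most of these genes are known as strongly expressed ones that the activators Rap1 and Gcr1 drive.

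The cells were grown on galactose in a chemostat, a culture kept at steady state by constant feed, and received a passing dose of glucose. There were 14 arrays at 3 to 240 min after 2 g/l glucose and 12 arrays at 2 to 150 min after 0.2 g/l glucose. On each array total RNA from 1 time after the pulse (Cy5) was set against total RNA of the culture at t=0 (Cy3), so every group shares galactose as its starting carbon source and t=0 as its comparison. The strain is not given in the sources used here. Each time was measured on 1 array, with no replicate time course named and no array with the dyes exchanged, so the arrays were grouped into windows by time. The early window held the arrays at 3, 5, 7 and 10 min after 2 g/l and those at 2, 4, 6, 8 and 10 min after 0.2 g/l. For both pulses the middle window held 15, 20, 30 and 45 min and the late window 90, 120 and 150 min. A last window at 180, 210 and 240 min existed for 2 g/l alone.

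Values are log2 ratios of the time after the pulse to t=0, so that 1 is a doubling and -1 a halving. A window is given as mean ± SD over its arrays. The SD thus comes from neighbouring times of a single time course. The p values of the main fit do not rest on the SD printed beside them. They rest on a common spread per gene, pooled over all windows of both pulses and drawn toward that of other genes by eBayes. That spread too is between neighbouring times and not between cultures. An error in t=0 RNA shared by the arrays of a pulse, or a dye effect on a gene, would enter each of them alike. The p values against t=0 and counts of arrays above or below 0 do not measure such an offset. It cancels where windows of the same pulse are compared. Windows were tested with limma over all 5372 genes, two-sided, with Benjamini-Hochberg adjustment over all of them, and a gene is said to have risen or fallen where its adjusted p was under 0.05. Where the arrays of compared windows are said not to overlap, this is a description. It is not named for every gene that showed it, and its share over all genes was not counted. The direction of the ratio is not stated in the deposited table and was taken as Cy5 over Cy3. Read that way, GAL1, for galactokinase, was at -3.00 ± 0.53 and HXT1, for a glucose transporter, at 3.68 ± 0.74 from 15 to 45 min after 2 g/l (SD, n = 4 each). Between 7627 and 9765 spots had a value per array. The arrays at 45, 30 and 90 min after 0.2 g/l were the least like the rest of their window (r = 0.0958, 0.35 and 0.419 across genes). Trunk gene calls that use them are given without them too, but those of the other pathway genes are not. On the array at 210 min after 2 g/l CDC19 had no value, and PFK2 had none at 6 min after 0.2 g/l.

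**Figure D1:**
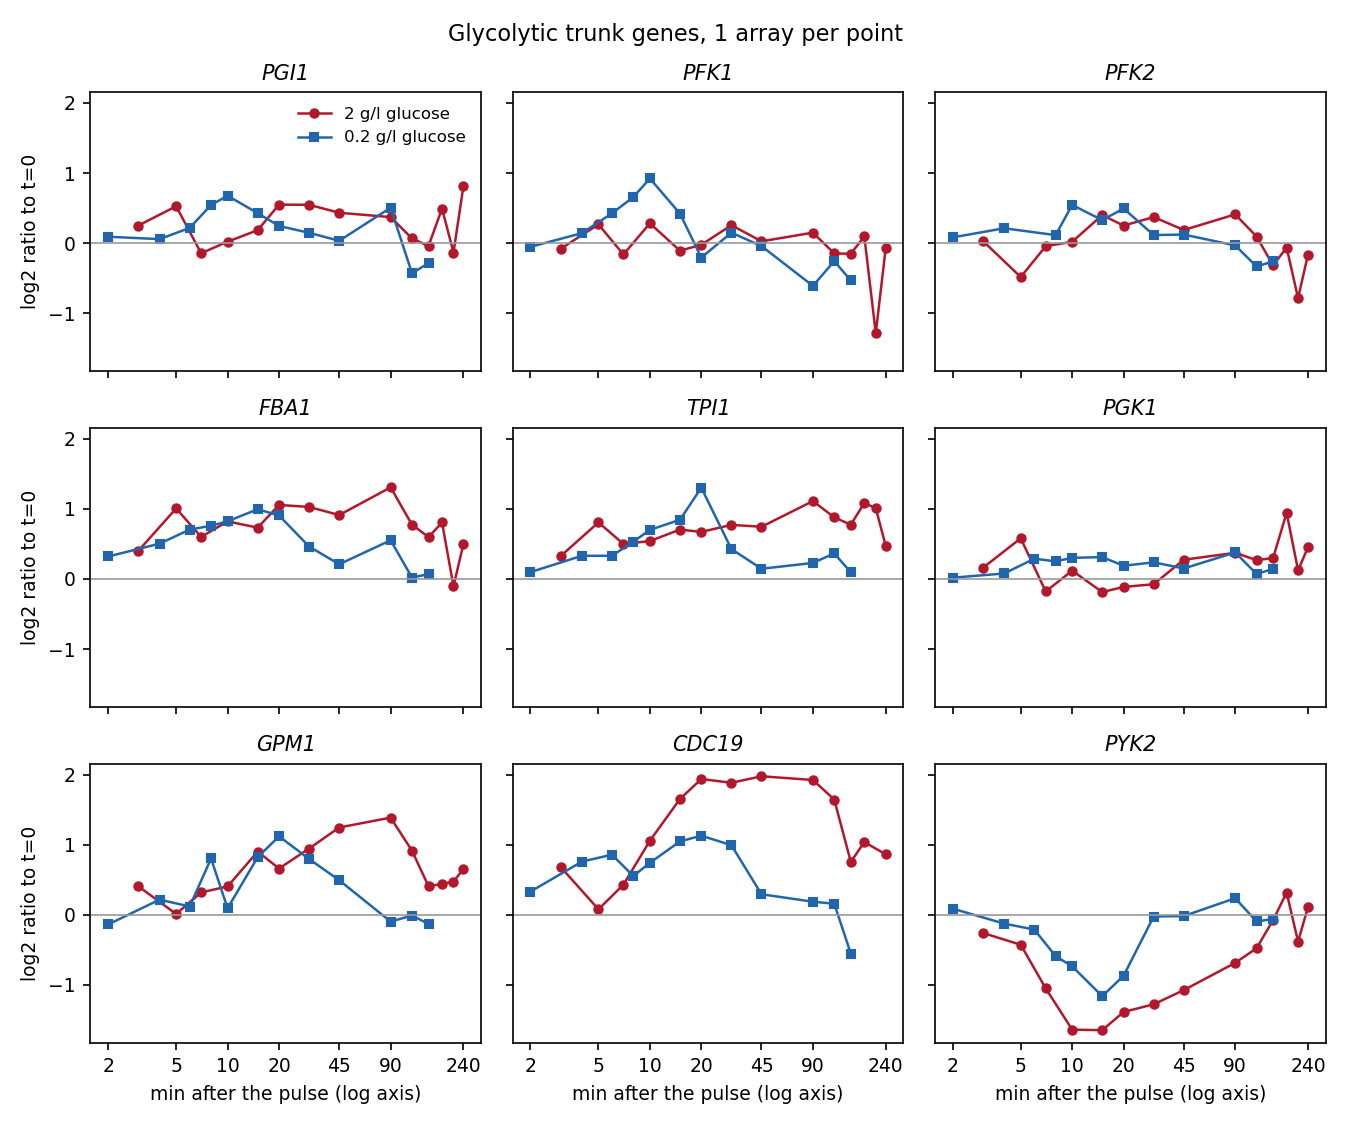
Log2 ratio to t=0 (y axis) against minutes after the pulse (x axis, logarithmic) for each of the 9 trunk genes, with 1 array per point, red circles for 2 g/l glucose and blue squares for 0.2 g/l. CDC19 reached 1.98 and PYK2 -1.65 after 2 g/l, while PGK1 stayed between -0.19 and 0.94.

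After 2 g/l glucose some trunk genes rose, 1 fell and some did not pass the test. CDC19 rose most, to 1.86 ± 0.15 (SD, n = 4, adjusted p = 4.85e-07) in the middle window, a 3.63-fold increase over t=0. FBA1, TPI1 and GPM1 rose to between 0.72 and 0.94 in the same window, and PGI1 rose to 0.43. The glucose-repressed isozyme gene PYK2 fell to -1.35 ± 0.24 (adjusted p = 2.48e-05), which is 2.54-fold below t=0. PFK1, PFK2 and PGK1 did not pass the test there. Over the middle window 5 of 9 trunk genes rose and 1 fell, while 43.8% of all genes tested were called (21.7% higher and 22.1% lower). The median of the 9 was 0.43 and that of all genes tested -0.03.

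In the early window after 2 g/l, 3 of the 9 had risen and 1 had fallen, with 37.6% of all genes called (16.8% higher and 20.8% lower). In the late window 4 were higher and 0 lower (14.5% of all genes called, 9.03% higher and 5.51% lower), and in the last window again 4 higher and 0 lower (8.38%, 5.96% higher and 2.42% lower). The median of the 9 was 0.17 for the early, 0.31 for the late and 0.40 for the last arrays, where the medians of all genes were -0.04, 0.02 and 0.05. The 4 calls of the last window fell to 1 without the array at 180 min, to 1 without that at 210 min and to 1 without that at 240 min. The 4 calls of the early window fell to 2 without the array at 10 min.

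**Figure D2:**
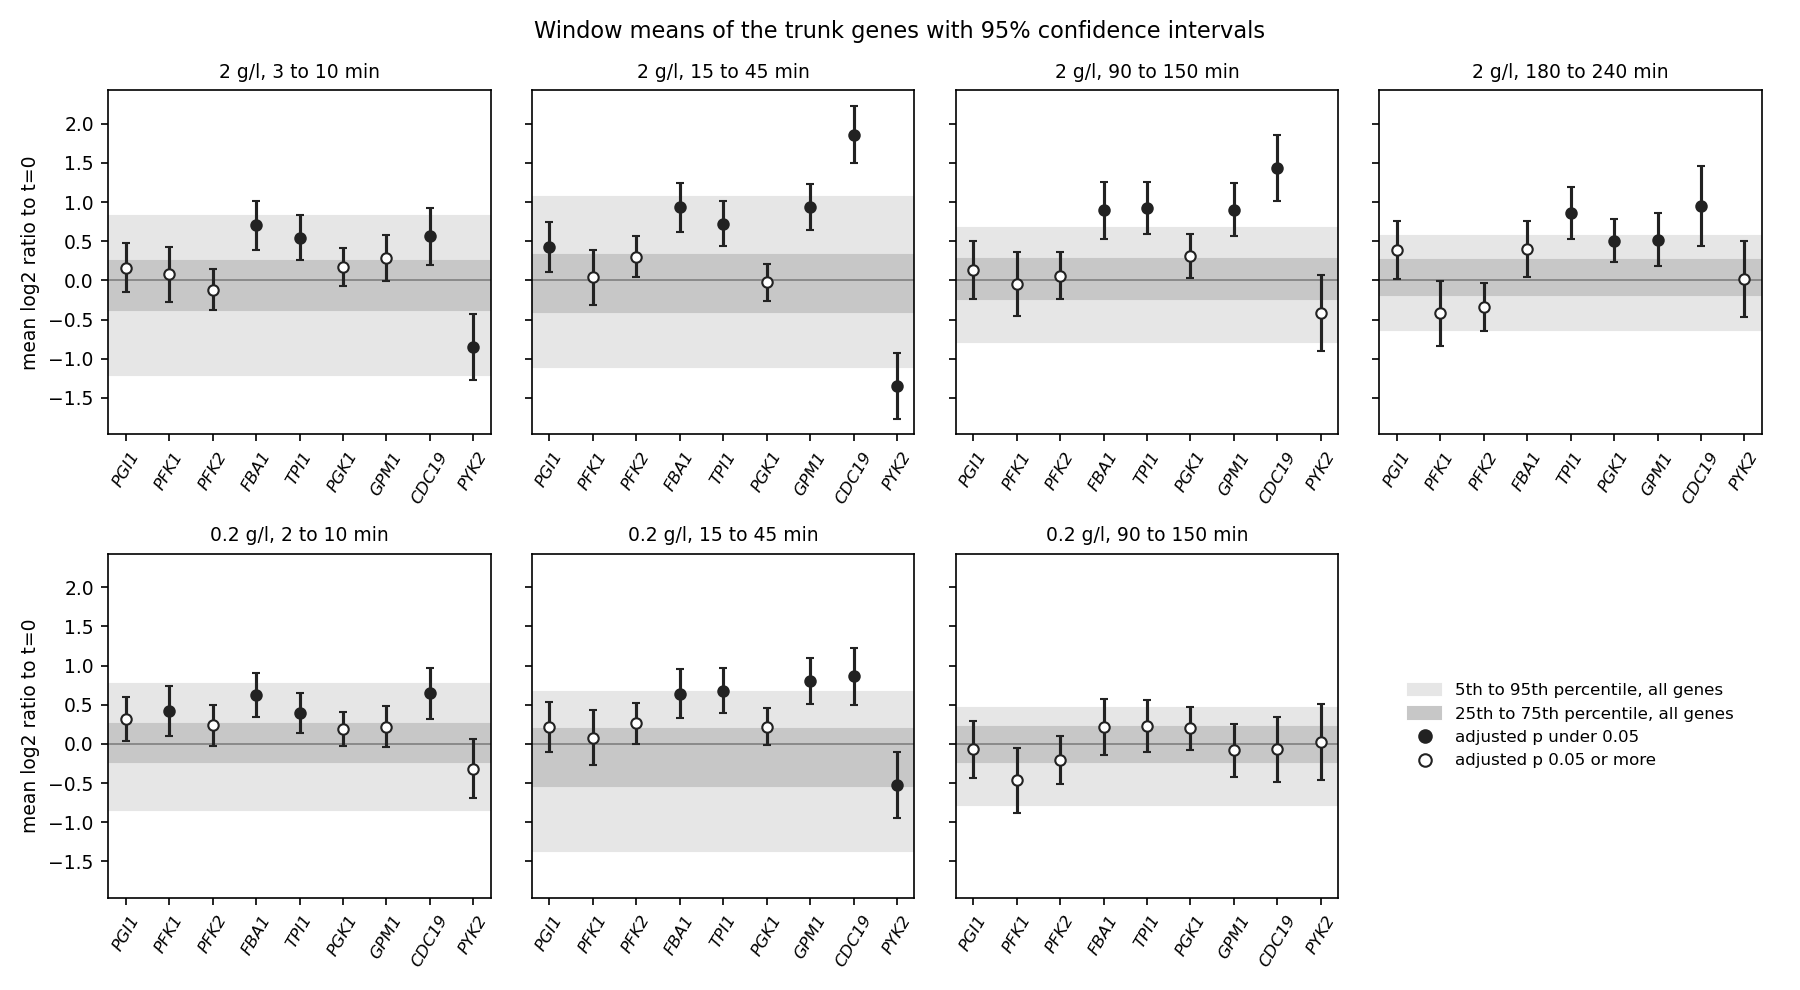
Mean log2 ratio to t=0 (y axis) of each trunk gene (x axis) in the 7 windows, with 95% confidence intervals from limma, filled circles where the adjusted p was under 0.05 and grey bands for the spread of all genes tested. CDC19 stood above the 95th percentile of all genes in the middle, late and last windows after 2 g/l, and none of the 9 genes had a filled circle in the late window after 0.2 g/l.

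CDC19, the main pyruvate kinase gene, had the largest mean of the 9 genes in the middle, late and last windows after 2 g/l and passed in all 4 windows. After 2 g/l its log2 ratio was 0.68 at 3 min, 0.08 at 5 min, 0.43 at 7 min and 1.06 at 10 min, and then 1.65, 1.94, 1.88 and 1.98 at 15, 20, 30 and 45 min. All 4 arrays of the middle window lay above all 4 of the early window, and the difference of the windows, middle minus early, was 1.30 (95% confidence interval 0.79 to 1.82, adjusted p = 0.011). In the late window it was at 1.92, 1.64 and 0.75 at 90, 120 and 150 min, with a mean of 1.44 ± 0.61 (SD, n = 3, adjusted p = 6.94e-05). At 180 and 240 min it was still at 1.04 and 0.86 (mean 0.95, adjusted p = 0.0216, 2 arrays). CDC19 was above 0 on 13 of 13 arrays, and its middle window mean exceeded that of 99.6% of all genes tested. The early call (0.56 ± 0.41, adjusted p = 0.0155) ended without the array at 3 min (adjusted p = 0.055) or 10 min (0.148). The early call also ended in a fit of that window alone (0.0781). The last window call ended without 180 min (adjusted p = 0.181) or 240 min (0.0969), each of which leaves 1 CDC19 value that is assumed to vary like the other windows, and in a fit of that window alone (0.0707). It also ended without the array at 210 min (0.071), which holds no CDC19 value, so that the mean of 0.95 was the same and the loss does not bear on a CDC19 measurement there.

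PYK2 fell in the early and middle windows and was not called in the late and last ones. Its log2 ratio after 2 g/l was -0.26, -0.43, -1.05 and -1.64 at 3, 5, 7 and 10 min, and -1.65, -1.39, -1.28 and -1.08 at 15, 20, 30 and 45 min. It stood lowest at 10 and 15 min and was nearer to 0 at each later time up to 150 min. At 90, 120 and 150 min it was at -0.69, -0.48 and -0.08, and at 180, 210 and 240 min at 0.32, -0.38 and 0.11. The early mean was -0.84 ± 0.63 (SD, n = 4, adjusted p = 0.00287), a call that ended without the array at 10 min (adjusted p = 0.0525) or in a fit of that window alone (0.0659). The late mean (-0.41 ± 0.31, adjusted p = 0.262) and the last mean (0.01 ± 0.36, adjusted p = 0.983) did not pass. All 3 arrays of the late window lay above all 4 of the middle window, but the difference, late minus middle, of 0.93 (95% confidence interval 0.29 to 1.58) had an adjusted p of 0.0915. The middle mean of PYK2 was higher than that of only 3.07% of all genes.

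The log2 ratio of PYK2 minus that of CDC19 on the same array shows how far the balance of the pyruvate kinase messages moved from its t=0 value. It is a difference of changes and says nothing of the level of either message. After 2 g/l it was below 0 on 13 of 13 arrays, with a median of -2.12, from -0.51 at 5 min to -3.32 at 20 min. It stayed between -3.05 and -3.32 from 15 to 45 min, was at -2.61 at 90 min and -2.12 at 120 min, and reached -0.83, -0.72 and -0.75 at 150, 180 and 240 min. After 0.2 g/l it was below 0 on 10 of 12 arrays, with a median of -0.95 and a lowest value of -2.21 at 15 min. It was at -0.31 at 45 min and at 0.05, -0.25 and 0.49 at 90, 120 and 150 min. With the 3 arrays least like their window left out it was below 0 on 8 of 9 arrays after 0.2 g/l, with a median of -1.07. Whether RNA of either isozyme gene also hybridised to the other's spot was not tested.

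**Figure D3:**
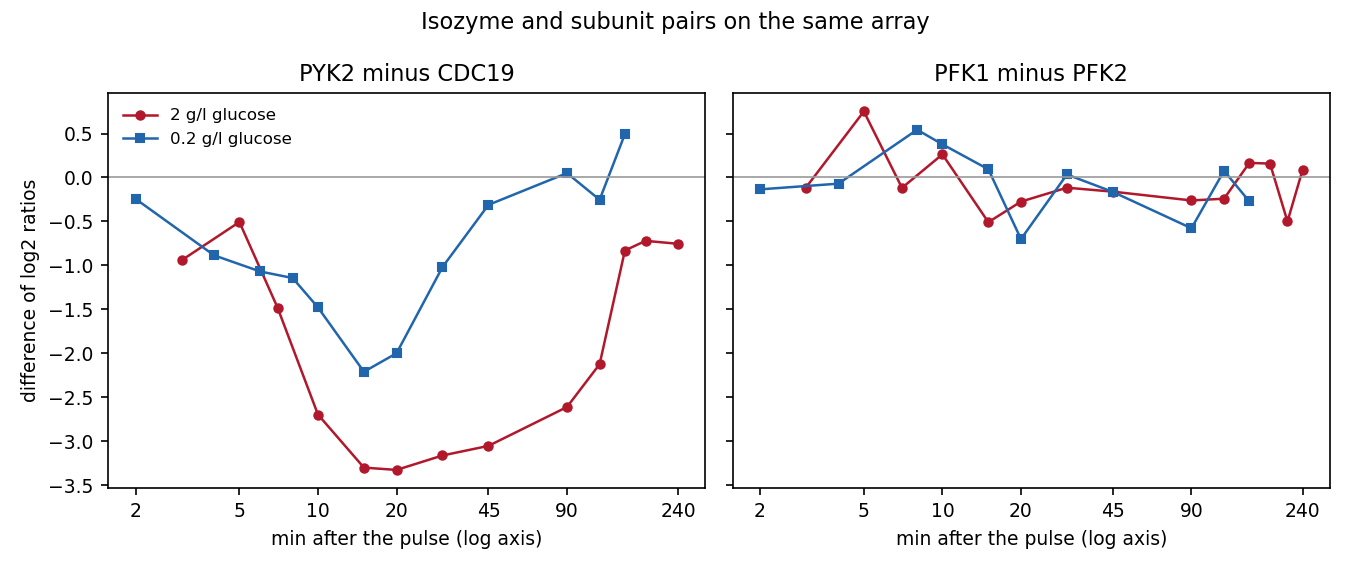
Difference of log2 ratios on the same array (y axis) against minutes after the pulse (x axis, logarithmic), for the pyruvate kinase isozymes (PYK2 minus CDC19, left) and the phosphofructokinase subunits (PFK1 minus PFK2, right), red circles for 2 g/l and blue squares for 0.2 g/l. The isozyme difference reached -3.32 after 2 g/l and -2.21 after 0.2 g/l, while the subunit difference ran from -0.51 to 0.75 and from -0.70 to 0.54.

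FBA1 and TPI1, for aldolase and triosephosphate isomerase, had both risen by the early window and stayed called in the middle and late windows. FBA1 was at 0.40, 1.01, 0.60 and 0.82 at 3, 5, 7 and 10 min after 2 g/l (mean 0.71 ± 0.26, SD, n = 4, adjusted p = 0.00126) and at 0.73, 1.06, 1.03 and 0.91 at 15, 20, 30 and 45 min (mean 0.93 ± 0.15, adjusted p = 4.84e-05). These 2 windows overlapped, and the difference, middle minus early, was 0.22 (adjusted p = 0.689). FBA1 was highest at 90 min (1.31), followed by 0.77 and 0.60 at 120 and 150 min (late mean 0.89 ± 0.37, SD, n = 3, adjusted p = 0.00127), and this call ended without the array at 90 min (adjusted p = 0.0534). In the last window it was at 0.80, -0.10 and 0.50, and the mean of 0.40 ± 0.46 did not pass (adjusted p = 0.168).

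TPI1 was above 0 on all 14 arrays after 2 g/l, from 0.32 at 3 min to 1.11 at 90 min. It was at 0.32, 0.81, 0.50 and 0.54 in the early window (mean 0.54 ± 0.20, SD, n = 4, adjusted p = 0.00431) and at 0.70, 0.67, 0.77 and 0.74 in the middle window (mean 0.72 ± 0.04, adjusted p = 0.000244). It was then at 1.11, 0.88 and 0.77 in the late window (mean 0.92 ± 0.17, SD, n = 3, adjusted p = 0.000417) and at 1.08, 1.01 and 0.48 in the last (mean 0.86 ± 0.33, adjusted p = 0.00254). TPI1 thus passed in all 4 windows. Its lowest late array (0.774 at 150 min) was nearly level with its highest middle array (0.771 at 30 min), and the difference of 0.20 did not pass (adjusted p = 0.695). The last window call ended without the array at 210 min (adjusted p = 0.0624) or in a fit of that window alone (0.0653).

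GPM1, for phosphoglycerate mutase, was not called in the early window and rose in the middle, late and last ones. It was at 0.41, 0.01, 0.32 and 0.40 in the early window (mean 0.28 ± 0.19, SD, n = 4, adjusted p = 0.119) and at 0.90, 0.66, 0.94 and 1.24 in the middle window (mean 0.94 ± 0.24, adjusted p = 2.48e-05). The arrays of these windows did not overlap, but the difference, middle minus early, of 0.65 had an adjusted p of 0.0827. GPM1 was highest at 90 min (1.38) and at 0.91 and 0.41 at 120 and 150 min (late mean 0.90 ± 0.49, SD, n = 3, adjusted p = 0.00065). It was at 0.44, 0.47 and 0.65 in the last window (mean 0.52 ± 0.12, adjusted p = 0.04999). That last call ended without 180 min (adjusted p = 0.113), 210 min (0.225) or 240 min (0.209), with each array centred on its median, with no filter on missing values, and in a fit of its own window.

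Of the steps before aldolase only PGI1 passed after 2 g/l, in 1 window, while PFK1 and PFK2 passed in none. PGI1, the entry step, rose in the middle window after 2 g/l with 0.18, 0.55, 0.55 and 0.43 (mean 0.43 ± 0.17, SD, n = 4, adjusted p = 0.0272), but not without the array at 20 min (adjusted p = 0.102), 30 min (0.098) or 45 min (0.0657), nor with quantile normalization. Its early (0.16 ± 0.29), late (0.13 ± 0.21) and last means (0.39 ± 0.48) did not pass (adjusted p = 0.43, 0.671 and 0.189). Its spots differed by a median of 0.18 over 22 arrays, against a window mean of 0.43. PFK1, for the alpha subunit of phosphofructokinase, lay between -0.16 and 0.28 on every array up to 180 min and PFK2, for the beta subunit, between -0.48 and 0.41. In the middle window PFK1 was at 0.04 (95% confidence interval -0.32 to 0.39, adjusted p = 0.884) and PFK2 at 0.30 (0.04 to 0.57, adjusted p = 0.0578). In the last window PFK1 was at -0.42 ± 0.75 and PFK2 at -0.34 ± 0.39 (SD, n = 3), and neither passed (adjusted p = 0.205 and 0.165). The last means of PGI1, PFK1 and PFK2 each had an unadjusted p under 0.05. On the array at 210 min PFK1 and PFK2 were at their lowest, with -1.28 and -0.79, and FBA1 was also at its lowest there (-0.10).

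PGK1, for phosphoglycerate kinase, was not called before the last window. It was at -0.19, -0.12, -0.08 and 0.27 at 15, 20, 30 and 45 min after 2 g/l (mean -0.03 ± 0.21, SD, n = 4) with a 95% confidence interval of -0.27 to 0.21 (adjusted p = 0.88), while FBA1, TPI1, GPM1 and CDC19 were called there. Later it was at 0.37, 0.27 and 0.30 in the late window (mean 0.31 ± 0.05, SD, n = 3, adjusted p = 0.126) and at 0.94, 0.12 and 0.45 in the last, where it rose to a mean of 0.51 ± 0.41 (adjusted p = 0.0217). This call ended without the array at 180 min (adjusted p = 0.286) or 240 min (0.0642), or in a fit of that window alone (0.158). The spots of PGK1 differed by a median of 0.07 over 26 arrays.

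After the smaller pulse, FBA1, TPI1, GPM1 and CDC19 rose and PYK2 fell in the middle window, all 5 of which were also called there after 2 g/l. That made 4 of 9 genes higher and 1 lower, with 39.5% of all genes called (15.1% higher and 24.4% lower). CDC19 was at 1.05, 1.13, 0.99 and 0.29 at 15, 20, 30 and 45 min (mean 0.86 ± 0.39, SD, n = 4, adjusted p = 0.000891), GPM1 at 0.82, 1.12, 0.80 and 0.49 (mean 0.81 ± 0.26, adjusted p = 0.000262) and TPI1 at 0.84, 1.30, 0.43 and 0.14 (mean 0.68 ± 0.50, adjusted p = 0.000856). FBA1 was at 0.99, 0.90, 0.46 and 0.21 (mean 0.64 ± 0.37, adjusted p = 0.00252). All 4 were lowest within the window at 45 min, on the array least like its window, whose part in these values was not tested. PYK2 fell with -1.16, -0.87, -0.03 and -0.02 (mean -0.52 ± 0.59, adjusted p = 0.0463), so its fall rests on the first pair of times. The call ended without 15 min (adjusted p = 0.3) or 20 min (0.206), and with quantile normalization it was at -0.33 (adjusted p = 0.12). Without the arrays at 30, 45 and 90 min again 4 genes rose and 1 fell, with CDC19 at 1.09 and PYK2 at -1.02. In a fit of these 4 arrays alone 0 of these calls remained.

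At 2 to 10 min after 0.2 g/l 4 genes rose and 0 fell, with 29.8% of all genes called (18.1% higher and 11.7% lower). FBA1 was at 0.32, 0.50, 0.70, 0.76 and 0.82 at 2, 4, 6, 8 and 10 min, higher at each time than at the one before (mean 0.62 ± 0.21, SD, n = 5, adjusted p = 0.00179). CDC19 was at 0.33, 0.76, 0.86, 0.55 and 0.74 (mean 0.65 ± 0.21, adjusted p = 0.00407). TPI1 was at 0.10, 0.33, 0.33, 0.53 and 0.70 (mean 0.40 ± 0.23, adjusted p = 0.0194), and its call ended without 8 min (adjusted p = 0.0758) or 10 min (0.108). PFK1 was at -0.05, 0.14, 0.42, 0.66 and 0.92, of which the last 3 were its highest values in the series, and rose to a mean of 0.42 ± 0.39 (adjusted p = 0.0436). This call ended without 6 min (adjusted p = 0.0958), 8 min (0.156) or 10 min (0.227), and with median centring, quantile normalization or a fit of these arrays alone. Without 8 min or without 10 min the 4 calls of this window fell to 2. PYK2 was at 0.09, -0.13, -0.21, -0.59 and -0.74 and did not pass (mean -0.32 ± 0.34, adjusted p = 0.197).

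PGI1, PFK2 and PGK1 passed in no window after 0.2 g/l. PGI1 was at 0.09, 0.06, 0.22, 0.54 and 0.68 in the early window (mean 0.32 ± 0.28, SD, n = 5, adjusted p = 0.0839), so that its highest early values were at 8 and 10 min, as for PFK1. PFK2 ran from 0.08 to 0.55 over the 4 early arrays that had a value and from 0.12 to 0.49 in the middle window (mean 0.26 ± 0.18, SD, n = 4, adjusted p = 0.0988). PGK1 was above 0 on all 12 arrays, from 0.02 at 2 min to 0.38 at 90 min, with means of 0.19, 0.22 and 0.20 in the early, middle and late window (adjusted p = 0.179, 0.13 and 0.418). GPM1 was at -0.14, 0.22, 0.12, 0.80 and 0.09 in the early window and did not pass there (mean 0.22 ± 0.35, SD, n = 5, adjusted p = 0.202).

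By 90 to 150 min after 0.2 g/l no trunk gene passed. Limma called 0 of the 9 genes, with 1 (PFK1, named after its value was seen, at -0.47 ± 0.19, SD, n = 3, adjusted p = 0.161) at an unadjusted p under 0.05, while 7.54% of all genes were called (3.61% higher and 3.93% lower). CDC19 was at 0.18, 0.16 and -0.56, and GPM1 at -0.10, -0.01 and -0.13. The median of the 9 was -0.07, and that of all genes 0.03. Without the array at 90 min and those at 30 and 45 min the count was also 0. With array weights 3 were lower (PFK1, PFK2 and PGI1), and with quantile normalization PFK1 was lower.

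Between the pulses no trunk gene passed in the first 10 min. For 2 g/l minus 0.2 g/l limma called 0 of the 9 genes in the early window, with 0 at an unadjusted p under 0.05, and 0.484% of all genes (0.242% higher and 0.242% lower). CDC19 differed by -0.09 (95% confidence interval -0.57 to 0.40) and PYK2 by -0.53 (-1.09 to 0.04). In the middle window 1 of the 9 was higher after 2 g/l and 0 were lower, with 14.8% of all genes called (8.53% higher and 6.25% lower). This was CDC19, with a mean of 1.86 after 2 g/l and 0.86 after 0.2 g/l, a difference of 1.00 (95% confidence interval 0.48 to 1.51, adjusted p = 0.0116) with no overlap of the arrays. The call ended without the 3 arrays at 30, 45 and 90 min after 0.2 g/l (difference 0.77, adjusted p = 0.0825), where the arrays left gave 1.05 and 1.13, with quantile normalization (0.66, adjusted p = 0.0864), in a fit of these windows alone (adjusted p = 0.076) and with arrays of the same minute paired (0.127). The PYK2 difference was -0.83 (-1.42 to -0.23, adjusted p = 0.055), which passed when 15 min (adjusted p = 0.016) or 20 min (0.0486) after 0.2 g/l was left out and with quantile normalization (-0.97, adjusted p = 0.00699), and was at -0.33 (adjusted p = 0.544) without the 3 arrays. GPM1, TPI1 and FBA1 differed by 0.13, 0.04 and 0.29 with intervals that include 0, and by -0.03, -0.35 and -0.02 without the 3 arrays.

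From 90 to 150 min CDC19 and GPM1 were higher after 2 g/l. Thus 2 of the 9 genes were higher and 0 were lower, with 3.03% of all genes called (1.14% higher and 1.9% lower). CDC19 had a mean of 1.44 ± 0.61 after 2 g/l and -0.07 ± 0.42 after 0.2 g/l (SD, n = 3 each), a difference of 1.51 (95% confidence interval 0.92 to 2.10, adjusted p = 0.0051), and GPM1 had 0.90 ± 0.49 after 2 g/l and -0.08 ± 0.06 after 0.2 g/l, a difference of 0.98 (0.50 to 1.46, adjusted p = 0.0214). In both genes the arrays did not overlap. The GPM1 call ended without the 2 g/l array of 90 min (adjusted p = 0.163) or 120 min (0.0841) or the 0.2 g/l array of 90 min (0.0543) or 150 min (0.0874), leaving 1 of the 2 calls each time, and with arrays of the same minute paired (0.144). Without the 3 arrays least like their window the differences were 1.64 for CDC19 (adjusted p = 0.0049) and 0.97 for GPM1 (0.0313). Neither call held in a fit of these windows alone (adjusted p = 0.0692 for CDC19 and 0.0864 for GPM1). TPI1 and FBA1 differed by 0.69 and 0.68 (adjusted p = 0.103 and 0.15) and PFK1 by 0.42 (adjusted p = 0.527), also with arrays that did not overlap. FBA1 passed without the 3 arrays least like their window (0.85, adjusted p = 0.0484). The difference of PYK2 was -0.44 (-1.13 to 0.25, adjusted p = 0.601). Each dose was given in 1 time course, so the dose and the time course cannot be told apart.

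**Figure D4:**
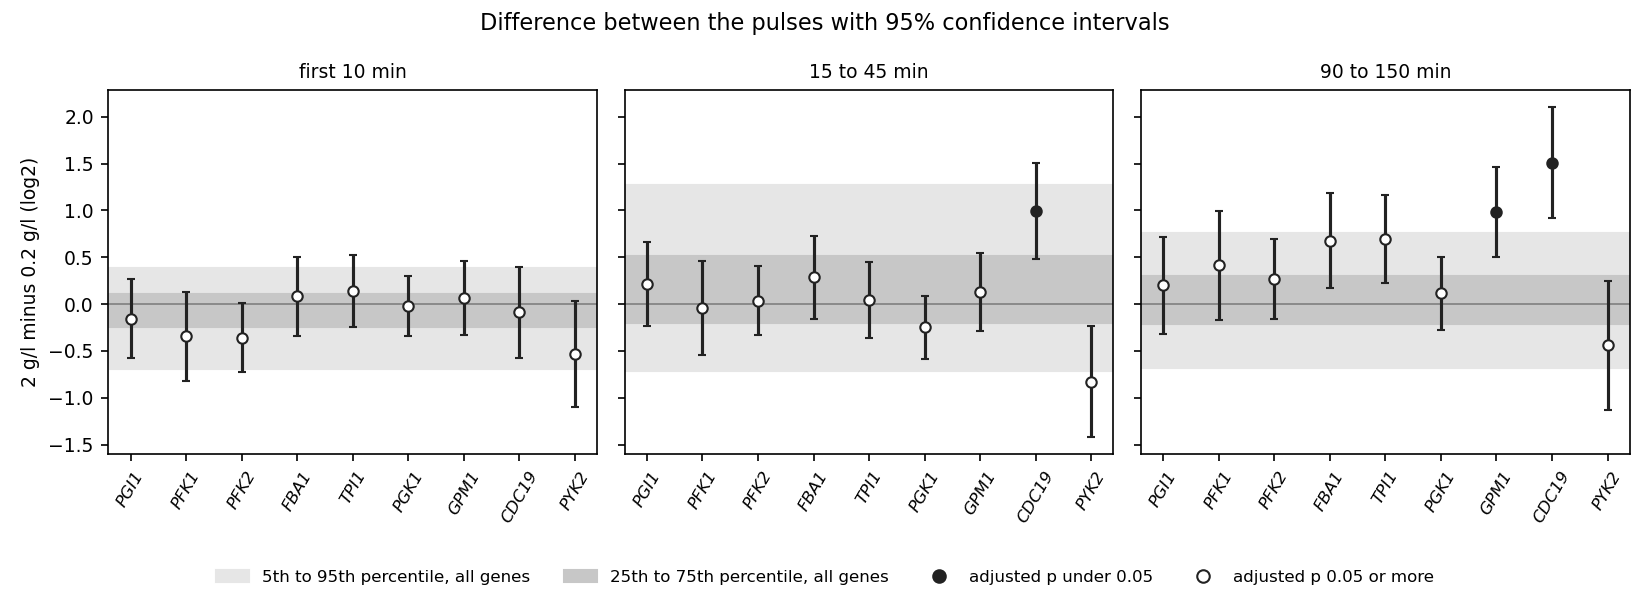
Difference of window means, 2 g/l minus 0.2 g/l, on the log2 scale (y axis) for each trunk gene (x axis) in the early, middle and late window, with 95% confidence intervals, filled circles where the adjusted p was under 0.05 and grey bands for the spread of all genes tested. CDC19 stood at -0.09, 1.00 and 1.51 in the 3 windows and GPM1 reached 0.98 in the late window.

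At the 8 times measured after both pulses (10, 15, 20, 30, 45, 90, 120 and 150 min), CDC19 was higher after 2 g/l at 8 of 8, by a median of 1.10 (0.32 to 1.74). PYK2 was lower after 2 g/l at 8 of 8, with a median difference of -0.71 (-1.25 to -0.02). GPM1 was higher at 7 and FBA1 and PFK1 at 6 of the 8 times, TPI1, PGI1 and PFK2 at 5, and PGK1 at 3. Without 30, 45 and 90 min CDC19 was higher at 5 of 5 times (median 0.81), PYK2 lower at 5 of 5 (median difference -0.48), GPM1 higher at 4, FBA1, PFK1 and PGI1 at 3, and TPI1, PFK2 and PGK1 at 2. The times belong to 1 time course per pulse and share its t=0 reference, so these counts are descriptions.

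Set against the window before it in the same pulse, a window differed in few of the 9 genes. In the middle relative to the early window after 2 g/l CDC19 was higher, as given above, as 1 of 9 (2.1% of all genes, 0.503% higher and 1.6% lower). In the late relative to the middle window limma called 0 of the 9, with 1 (PYK2) at an unadjusted p under 0.05, and 4.26% of all genes (3.46% higher and 0.8% lower). In the last relative to the late window it called 0, with 0 at an unadjusted p under 0.05, and 1.25% of all genes (1.04% higher and 0.205% lower). In the middle relative to the early window after 0.2 g/l it called 0, with 1 at an unadjusted p under 0.05, and 6.22% of all genes (1.14% higher and 5.08% lower). That was GPM1 (0.59, adjusted p = 0.0667), which passed when 8 min (adjusted p = 0.0249) or 45 min (0.022) was left out or without the 3 arrays least like their window, when TPI1 passed too (adjusted p = 0.0213). In the late relative to the middle window after 0.2 g/l GPM1 fell, as 1 of 9 (1.9% of all genes, 1.27% higher and 0.633% lower), by 0.89 on the log2 scale (adjusted p = 0.0368), with no overlap of the arrays. This call ended, leaving 0, when 15 min was left out (adjusted p = 0.0919), and likewise for 20 min (0.105), 90 min (0.0837), 120 min (0.105) and 150 min (0.124). The CDC19 difference was -0.94 (adjusted p = 0.0718), and it passed without the array of 45 min (-1.13, adjusted p = 0.00823), as did TPI1 (-0.63, adjusted p = 0.0375), which made 3 calls. Without the 3 arrays least like their window GPM1 (-1.04, adjusted p = 0.0173), CDC19, FBA1 and TPI1 were all lower, which made 4 calls.

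The other genes of the pathway moved in both directions. Of 25 of them (hexose kinases, fructose 2,6-bisphosphate enzymes, the TDH, ENO and GPM isozymes, pyruvate to ethanol, the gluconeogenic bypass and the activators), 5 rose and 7 fell in the early window after 2 g/l, where 37.6% of all genes were called, and 8 rose and 9 fell in the middle window, with a median of 0.04, where 43.8% were. The largest changes of the middle window were those of PFK27, for an enzyme that makes fructose 2,6-bisphosphate (2.68 ± 0.19, SD, n = 4), PDC1, for pyruvate decarboxylase, the step after pyruvate kinase (2.52 ± 0.12), FBP1, for fructose bisphosphatase, which runs the phosphofructokinase step in reverse (-2.41 ± 0.12), and GLK1, for glucokinase (-2.22 ± 0.47). At 90 to 150 min 8 rose and 2 fell (14.5% of all genes called), and at 180 to 240 min 6 rose and 0 fell (8.38%). After 0.2 g/l 9 rose and 2 fell in the early window (29.8%) and 10 rose and 6 fell by 15 to 45 min (39.5%), and limma called 0 in the late window (7.54%), with 7 at an unadjusted p under 0.05. For 2 g/l minus 0.2 g/l 6 were higher and 4 lower in the middle window (14.8%). PDC1 was among those higher, with a difference of 1.42 (adjusted p = 0.00318). Among those lower were 2 of the 3 hexose kinase genes. HXK1, a hexokinase gene, was at -1.90 ± 0.60 after 2 g/l and at 1.26 ± 2.21 after 0.2 g/l (SD, n = 4 each). In the late window 7 were higher and 2 lower (3.03%), with PFK27 at 2.61 (0.00571), PDC1 at 2.17 and FBP1 at -3.09 (0.00127 each). The middle and late counts and values that involve 0.2 g/l were not taken without the 3 arrays least like their window.

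Beside PGK1, the TDH genes encode the step just before it, glyceraldehyde phosphate dehydrogenase, and the ENO genes the step after GPM1, enolase. Of these 5 isozyme genes 2 rose and 0 fell in the middle window after 2 g/l (ENO1 and ENO2, named after their values were seen, at 1.01 ± 0.18 and 1.05 ± 0.31, SD, n = 4), where 43.8% of all genes were called. In the last window all 5 rose (8.38% of all genes called), with ENO2 measured on 2 arrays. After 0.2 g/l all 5 rose both early (29.8%) and at 15 to 45 min (39.5%). Whether these calls rest on single arrays was not tested. Of the 4 activator genes 2 were higher and 1 lower in the middle window after 2 g/l, where 43.8% of all genes were called. These were GCR1 (0.34 ± 0.10), GCR2 (0.36 ± 0.28) and RAP1 (-0.32 ± 0.08), named after their values were seen, against 0.72 or more for CDC19, FBA1, TPI1 and GPM1. In the middle window after 0.2 g/l those 4 trunk genes rose too, with 39.5% of all genes called. There GCR1 was lower (-0.37 ± 0.38, SD, n = 4, adjusted p = 0.0214) and GCR2 higher (0.37 ± 0.14, adjusted p = 0.011).

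Over all arrays of both pulses the trunk genes other than PYK2 mostly correlated positively with each other. Of their 28 pairs 25 had a Pearson r above 0, with a median of 0.42, from -0.21 (PFK2 and PGK1) to 0.82 (GPM1 and CDC19). The median r of each of these genes with all genes compared ran from -0.08 for PFK2 to 0.06 for TPI1. The share of all gene pairs with r above 0 was not taken. Of the 8 pairs with PYK2 only 1 was above 0, that with PGK1 (r = 0.52), and CDC19 and PYK2 had r = -0.59. PFK1 and PFK2, the subunits of 1 enzyme, had r = 0.61. Their difference on the same array ran from -0.51 to 0.75 after 2 g/l and from -0.70 to 0.54 after 0.2 g/l, with medians of -0.12 and -0.07. With the 3 arrays least like their window left out again 25 of the 28 pairs (median 0.44) and 1 of the 8 with PYK2 were above 0, r was 0.82 for GPM1 and CDC19, -0.56 for CDC19 and PYK2 and 0.62 for PFK1 and PFK2, and the median difference of PFK1 and PFK2 after 0.2 g/l was 0.00. The arrays of a pulse share t=0 and hold neighbouring times, so r is a description over up to 26 arrays.

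**Figure D5:**
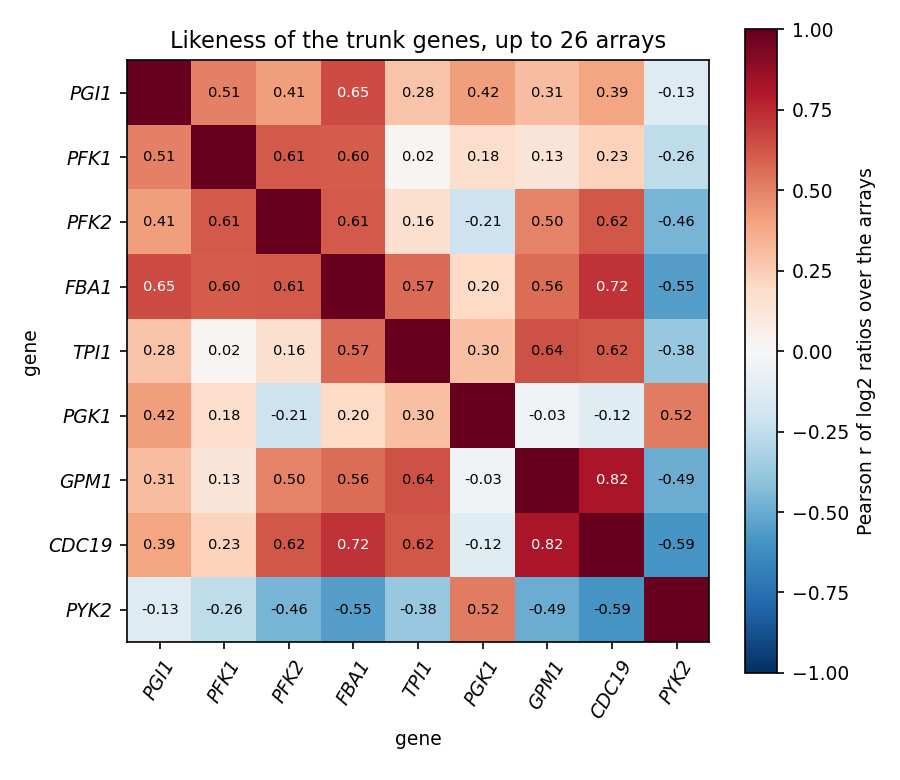
Pearson r of log2 ratios between each pair of trunk genes (rows and columns) over up to 26 arrays of both pulses, from blue (-1) to red (1). GPM1 and CDC19 had the highest r (0.82), and CDC19 and PYK2 the lowest (-0.59).

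The genes most like each trunk gene were taken as the 3 with the highest Pearson r over at least 20 arrays. For CDC19 these were ENO2 (r = 0.888, 24 arrays), PDC1 (0.887, 24 arrays) and PDC5 (0.858, 25 arrays), which encode enolase and pyruvate decarboxylases. For GPM1 they were CDC19 (0.817, 25 arrays), ENO2 (0.797, 25 arrays) and RPS20, for a ribosomal protein (0.791, 26 arrays). TPI1 was most like ENO1 (0.781, 26 arrays), followed by MTC7 (0.732) and MXR1, for a methionine sulfoxide reductase (0.727). PYK2 had the closest matches of all, with IGD1, for an inhibitor of glycogen breakdown (0.956), GAD1, for glutamate decarboxylase (0.955), and RIM4, for an RNA-binding protein of meiosis (0.954, 26 arrays each).

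Like PYK2, the trunk genes FBA1, PFK1, PFK2, PGI1 and PGK1 were closest to genes outside the pathway. FBA1 was most like PMT2, for a protein mannosyltransferase (0.882, 25 arrays), RPS4B, for a ribosomal protein (0.853), and ADO1, for adenosine kinase (0.846). PFK1 was most like ILV5, for a step of branched amino acid synthesis (0.823), KIN4 (0.812) and PSA1 (0.812), and PFK2 like CDC60, for a leucyl-tRNA synthetase (0.864), TIF3 (0.847) and KRE6 (0.846). PGI1 was most like HAC1 (0.739), YJL107C (0.738) and PMT2 (0.73), and PGK1 like XRN1, for an exonuclease that degrades mRNA (0.687), BYE1 (0.674) and STE24 (0.662). No trunk gene was among the 3 genes most like PGI1, PFK1, PFK2, FBA1, TPI1, PGK1, CDC19 or PYK2, and the trunk gene most like PGI1 was FBA1, at rank 16. Without the 3 arrays least like their window the 3 nearest genes were the same for PGI1, PFK2 and PYK2, with 2 of 3 shared for FBA1, GPM1 and CDC19, 1 for PFK1 and TPI1 and 0 for PGK1. CDC19 was then nearest to PDC1 (0.878), GPM1 to ENO1 (0.831) and TPI1 to HXK2 (0.757).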

How the data were processed

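RNA of each time after the pulse (Cy5) and of the t=0 culture (Cy3) was hybridised to 26 arrays of 2 colours, per the labels. The deposited values are log2 ratios per spot, normalized by the authors. Scale and direction were taken from the values and the labels, and how spots were filtered and normalized is not given in the sources used here. Of 10752 spots 3918 had no gene and 6834 had 1, and the mean over a gene's spots was taken. Names were checked against the yeast annotation R64, which held each of the 5606 genes. The 5372 genes with at least 2 values in each of 7 windows entered the fit (limma 3.58.1, R 4.3.3, lmFit with 7 window means, eBayes), from which 15 comparisons were drawn. Python 3.11.15, pandas 2.3.3, numpy 2.4.6 and matplotlib 3.10.9 were used for tables and figures. The fit was tested on simulated data. Alternatives were median centring, quantile normalization, other filters, the first spot, array weights, fewer windows in the fit, pairing by minute, and leaving out each array. Leaving out the 3 arrays least like their window was added after seeing the data.

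The members and lists were chosen with earlier results of these data known. Values were named for all members, for up to 4 called pathway genes with the largest change per comparison, and for the 3 genes most like each member. Spot brightness was not used here, so precision in the main fit is set by how many arrays a window held and by the spread of each gene. Sequences of the genes were not used here.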

Additional observations from a re-analysis of the deposited data

Results flagged for a closer look

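In 36 groups of 4 or 5 arrays (9 genes in 4 windows) 2 arrays lay far from the rest of their window, and chance gives about 1 such group in 20. PFK2 was at -0.48 at 5 min after 2 g/l, where the other early arrays lay between -0.04 and 0.03. CDC19 was at 0.29 at 45 min after 0.2 g/l, where the other middle arrays lay between 0.99 and 1.13. That array was also the one least like its window across genes (r = 0.0958), and the part of this in the CDC19 value was not tested.

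The response differed between the pulses, by the test of the difference, in 3 cases. CDC19 was higher after 2 g/l than after 0.2 g/l by 1.00 in the middle window (adjusted p = 0.0116, higher at 4 of 4 matched times) and by 1.51 in the late window (adjusted p = 0.0051, 3 of 3 times). GPM1 was higher by 0.98 in the late window (adjusted p = 0.0214, 3 of 3 times). The matched times are the arrays of the windows tested, so their counts add no support to the test. The CDC19 call held under 4 of 8 alternatives in the middle window and 7 of 8 in the late one. The GPM1 call held under 7 of 9 alternatives and in 2 of the 6 fits that left out an array. Dose and time course cannot be told apart.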

How the results depend on the processing

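Of 135 member results 32 were called. Of these, 13 kept their direction and their side of the threshold under every alternative that gave a value and without each array, 15 under every alternative and 19 without each array, and 0 reversed. Counts of called trunk genes moved as follows. With the compared windows alone in the fit, which leaves fewer arrays, the count was 2 early and 0 last after 2 g/l, 0 in the middle after 0.2 g/l, 0 for the middle and 0 for the late pulse difference, 1 for late minus middle after 2 g/l and 0 for late minus middle after 0.2 g/l. With array weights it was 8 early (7 higher and 1 lower) and 3 late (0 higher and 3 lower) after 0.2 g/l. With these weights it was also 6 for the late pulse difference and 2 for late minus middle after 2 g/l. After 0.2 g/l they gave 2 for middle minus early and 7 for late minus middle. With quantile normalization it was 7 last after 2 g/l (5 higher and 2 lower, where 4 and 0 were called otherwise). It was then 1 late after 0.2 g/l (PFK1, lower), and 1 for middle minus early and 2 for late minus middle after 0.2 g/l. Among genes that lacked no array, which leaves out CDC19 and PFK2, it was 1 for the late pulse difference and 0 for middle minus early after 2 g/l. With median centring it was 2 for the middle pulse difference, since PYK2 passed. Its difference was -0.83 with and without centring, with an adjusted p of 0.0479 and 0.055. Without the 3 arrays least like their window, chosen after seeing the data, it was 0 for the middle pulse difference, and 2 for middle minus early and 4 for late minus middle after 0.2 g/l. With arrays of the same minute paired it was 0 for the middle and 1 for the late pulse difference. The cause was not tested except where said. The share of all genes called was taken for the main fit alone. Counts under the alternatives and without single arrays therefore have no such share beside them and say nothing particular to the trunk.

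Without each array in turn, the counts ran from 2 to 4 early, 5 to 6 middle, 3 to 4 late and 1 to 1 last after 2 g/l, and from 2 to 4 early, 4 to 5 middle and 0 to 0 late after 0.2 g/l. For the pulse difference they ran from 0 to 0 early, 1 to 2 middle and 1 to 2 late. After 2 g/l they ran from 1 to 1 for middle minus early, 0 to 0 for late minus middle and 0 to 0 for last minus late, and after 0.2 g/l from 0 to 1 for middle minus early and 0 to 3 for late minus middle. The labels give no replicate numbers, so pairing by minute, given above, was the one pairing run. Without the 3 arrays least like their window 17 of the 27 genes named as most like a trunk gene were named again.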
